A study of Mus musculus with 12 samples.

Results

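A set of 57 probes, each of a different gene name, was taken from the 41174 probes of a mouse expression array because their level moved with knockdown of Tip60 while the ratio for knockdown of p400 stayed near zero. The members were chosen by the deposited log2 values of both contrasts. The mean of Tip60 replicates 1, 2 and 4 had to lie at least 0.5 above or below the mean of the 4 EGFP arrays (1.41-fold), and the mean p400 ratio between -0.2 and 0.2. The EGFP mean had to be at least 8, and gene names beginning with Zfp, Krt, Olfr or Hist were left out, which removed 3 probes. Of the 17545 probes at or above that EGFP level, 771 passed the limit on the Tip60 difference, and 41 raised and 16 lowered probes met the whole rule. The Tip60 limit alone was passed upward by 3.24% and downward by 1.16% of those probes. Because the Tip60 and p400 values chose the members, they are given as a description, with no test.

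Tip60, encoded by Kat5, is an acetyltransferase that modifies histones and other proteins. It works in a large complex with p400, encoded by Ep400, an ATPase that exchanges histone variants in nucleosomes. In embryonic stem cells the complex is known for its part in keeping the undifferentiated state.

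The cells were E14, a mouse embryonic stem cell line, treated for 72 hr with esiRNA at 0.33 ng/µl. An esiRNA is a mixture of short interfering RNAs cut from a long double-stranded RNA. It was directed against Htatip (Kat5), against Ep400 or, in all controls, against EGFP, a jellyfish-derived fluorescent protein used as a non-targeting control. The p400 knockdown was hybridised against EGFP on 4 two-colour arrays, with the p400 RNA in Cy5 on replicates 1 and 3 and in Cy3 on replicates 2 and 4. Tip60 knockdown and EGFP control were measured on 4 single-colour arrays each, and the submitters, who call the replicates biological, set Tip60 replicate 3 aside as an outlier in intensity. A single cell line and a transient knockdown limit what the groups can stand for, and in bulk RNA fewer cells of a type and less RNA per cell cannot be told apart.

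Several arrays stood apart. Tip60 replicate 3 had 22188 spots well above background, against 25073 to 30107 on the other single-colour arrays. A flagged spot is one that the scanner software marked as non-uniform or as an outlier among replicate spots. It marked 109 spots as non-uniform on EGFP replicate 3, 96 on Tip60 replicate 2 and 46 on EGFP replicate 1, against 2 to 9 on the remaining single-colour arrays. The submitters' values keep flagged spots, so the differences of members with such a spot are also given without them where enough spots were left. All 10 markers of embryonic stem cells were well above background on the 8 single-colour arrays, as were 7 of 11 feeder fibroblast, 6 of 8 endoderm, 6 of 7 trophectoderm, 3 of 7 mesoderm and 5 of 7 neural ectoderm markers. The median Tip60 minus EGFP difference was 0.36 over the endoderm, 0.25 over the mesoderm and 0.14 over the trophectoderm markers. It was -0.02 over the feeder markers, which ranged from -0.18 to 1.23, and -0.07 over the embryonic stem cell and the neural ectoderm markers. Only 1 of the 7 mesoderm markers had an EGFP mean of at least 8. The part of these cell types in the members' values was not tested.

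The targeted genes bore out the labels. Kat5 (Htatip on the array) had log2 levels of 11.45, 11.35, 11.54 and 11.60 on EGFP replicates 1 to 4 and of 10.08, 10.00 and 10.05 on Tip60 replicates 1, 2 and 4, with 10.38 on replicate 3. Its groups did not overlap. Its p400 ratio was -0.44 ± 0.27 (SD, n = 4). Ep400 had 4 probes with mean p400 ratios of 0.05 ± 0.09, -0.57 ± 0.23, -0.81 ± 0.70 and 0.17 ± 0.24 (SD, n = 4). The pair at or below -0.57 had the highest EGFP levels, 11.66 and 11.16. The probe at -0.57 was below zero on all 4 arrays, while that at -0.81 had 0.04, -1.12, -0.58 and -1.57 on replicates 1 to 4.

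Promoter windows, from 250 bases before to 50 bases after a gene's start, were matched by symbol for 44 of the 57 members from RefSeq on build GRCm38.p6. The windows of 2 raised and 2 lowered members, picked by hand, are shown as examples. None of their spots was flagged and their groups did not overlap, which also held for other members. Capitals mark any of 5 short motifs on either strand. These were the TATA box (TATAAA), the GC box that Sp1 binds (GGGCGG), the CCAAT box that NF-Y binds (CCAAT), the E-box of Myc and its relatives (CACGTG) and the cAMP response element (TGACGTCA). Windows are read 5′ to 3′ along the gene's strand. Tgfbi lies on the plus strand (chr13:56609336-56609635), S100a13 on the plus strand (chr3:90514185-90514484), Rprm on the minus strand (chr2:54085503-54085802) and Sox4 on the minus strand (chr13:28953650-28953949).
Tgfbi: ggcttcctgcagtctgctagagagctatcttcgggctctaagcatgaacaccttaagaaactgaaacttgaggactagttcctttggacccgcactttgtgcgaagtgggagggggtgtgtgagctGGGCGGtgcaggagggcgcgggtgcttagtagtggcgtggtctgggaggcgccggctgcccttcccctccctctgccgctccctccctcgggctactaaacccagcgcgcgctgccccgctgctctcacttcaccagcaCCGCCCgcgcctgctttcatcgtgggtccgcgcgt
S100a13: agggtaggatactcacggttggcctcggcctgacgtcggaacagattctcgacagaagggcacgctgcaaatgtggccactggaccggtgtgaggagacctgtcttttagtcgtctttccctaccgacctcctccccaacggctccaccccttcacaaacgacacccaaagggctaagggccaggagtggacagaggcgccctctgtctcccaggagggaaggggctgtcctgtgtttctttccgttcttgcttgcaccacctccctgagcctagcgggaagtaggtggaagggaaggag
Rprm: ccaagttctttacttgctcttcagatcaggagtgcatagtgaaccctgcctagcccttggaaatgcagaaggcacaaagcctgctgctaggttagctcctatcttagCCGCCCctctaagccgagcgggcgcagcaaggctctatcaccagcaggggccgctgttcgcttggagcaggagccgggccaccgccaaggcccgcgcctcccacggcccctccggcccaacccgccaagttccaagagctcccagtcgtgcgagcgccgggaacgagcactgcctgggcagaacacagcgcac
Sox4: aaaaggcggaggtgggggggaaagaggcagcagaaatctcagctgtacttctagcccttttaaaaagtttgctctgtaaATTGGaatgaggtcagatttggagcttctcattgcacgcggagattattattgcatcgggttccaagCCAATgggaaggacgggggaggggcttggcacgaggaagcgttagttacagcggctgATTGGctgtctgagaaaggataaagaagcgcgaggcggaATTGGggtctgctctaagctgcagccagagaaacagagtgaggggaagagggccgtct
Tgfbi and Rprm held GGGCGG or its reverse, Sox4 held CCAAT or its reverse, and S100a13 held none of the 5 strings. The windows held 22 CG dinucleotides for Tgfbi, 14 for S100a13, 19 for Rprm and 12 for Sox4, against a median of 7 over all 32851 windows of 27025 genes. Those genes were not limited to the EGFP level of the rule. The windows of the raised members with a flagged spot had a median of 22.5.

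Over the windows of the members with no flagged spot, GGGCGG was in 5 of 9 raised and 7 of 13 lowered windows, against 35.7% of all windows. TATAAA was in 3 of 9 raised and 0 of 13 lowered windows, against 13.6% of all. CCAAT was in 4 of 9 and 2 of 13, against 37.4% of all. CACGTG was in 0 of 9 and 1 of 13, against 7.15%, and TGACGTCA was in none of these 22 windows, against 1.79% of all. The 3 TATAAA matches among raised members with no flagged spot were in the windows of Ackr3, Ncoa6 and Col13a1. Windows of the raised members with a flagged spot held GGGCGG in 15 of 30, TATAAA in 3 of 30 and CCAAT in 8 of 30. All windows were counted whatever a gene's level, while every member met the EGFP limit of 8. A match here is a string of letters in the window and no more, and its relation to the array values was not tested.

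Lowered members were the side of the set with few flagged spots. Of the 16, 15 had no flagged spot on the 7 single-colour arrays used, and in all 15 the Tip60 arrays lay below every EGFP array, where 17.8% of the probes with an EGFP mean of at least 8 did so. Since the same contrast chose the members, nothing is read from that share. Their differences ran from -0.65 to -0.50 with a median of -0.55. The median SD was 0.10 over the EGFP arrays and 0.11 over the Tip60 arrays, against 0.08 and 0.09 for the raised members with no flagged spot. They included 2 chromodomain helicases, 2 transcription factors, the miRNA-processing enzyme Dicer1 and genes of the cytoskeleton, adhesion and membrane traffic.

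Among the chromatin genes, Chd7, a chromodomain helicase that moves nucleosomes at enhancers, had log2 levels of 12.95, 12.93, 13.20 and 12.85 on EGFP replicates 1 to 4. Its Tip60 levels were 12.41, 12.60 and 12.43, a difference of -0.50 ± 0.10 (SE, n = 3 and 4). Chd9, a related helicase, had 8.97, 9.23, 9.13 and 8.85 in EGFP and 8.54, 8.61 and 8.35 in Tip60 knockdown, a difference of -0.55 ± 0.11. Both genes were lower on each Tip60 array than on any EGFP array. The chromatin remodeller list held 27 tested genes, of which 2 were called higher and 7 lower after Tip60 knockdown by limma with Benjamini-Hochberg adjustment over all genes, with a median of -0.16. Over all 16949 genes tested, 15.3% were called higher and 10.3% lower, with a median of 0.01. That split was 2586 higher and 1746 lower, and 1750 and 1769 with normexp and quantile normalization.

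The transcription factors were Sox4 and Atbf1 (now Zfhx3). Sox4, an HMG-box factor of progenitor cells, had 9.45, 9.41, 9.53 and 9.58 in EGFP and 8.92, 9.09 and 8.62 in Tip60 knockdown, a difference of -0.62 ± 0.14. Atbf1, a large homeodomain zinc finger factor, had 8.68, 8.71, 8.76 and 8.74 against 8.17, 8.11 and 8.13, a difference of -0.59 ± 0.02, the smallest error of any member. Of the 65 tested Sox, Klf, Gata and Fox genes, 15 were called higher and 8 lower in the limma fit, with a median of 0.02. The shares over all tested genes were 15.3% and 10.3%.

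Another 5 lowered members encode proteins of the cytoskeleton, cell contacts or membranes, put together here by their known roles and not by a fixed list. Kif13a, a kinesin motor, had 8.92, 8.94, 9.28 and 8.76 in EGFP and 8.30, 8.58 and 8.10 in Tip60 knockdown, and its difference of -0.65 ± 0.18 had the widest error of the lowered members with no flagged spot. Lpp, a LIM-domain protein of focal adhesions, had 8.06, 8.17, 8.13 and 7.87 against 7.38, 7.65 and 7.41 (-0.58 ± 0.11). Utrn, the homologue of dystrophin that links actin to the membrane, had 9.26, 9.18, 9.27 and 9.01 against 8.68, 8.77 and 8.52 (-0.52 ± 0.09). In these genes the highest Tip60 value was always that of replicate 2.

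Ptpn14, a tyrosine phosphatase of cell junctions, had 9.90, 9.86, 10.07 and 10.04 against 9.28, 9.48 and 9.44 (-0.57 ± 0.08). Sbf2, a myotubularin-related protein of membrane traffic, had 9.13, 9.13, 9.39 and 9.14 against 8.56, 8.82 and 8.43 (-0.59 ± 0.13). Tip60 replicate 2 was again the highest in both. Of the 50 tubulin and kinesin genes tested, 3 were called higher and 8 lower, with a median of -0.06, against 15.3% and 10.3% of all genes.

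Rprm, a cell-cycle inhibitor induced by p53, had 9.09, 9.04, 9.04 and 9.07 in EGFP and 8.55, 8.46 and 8.55 in Tip60 knockdown, a difference of -0.54 ± 0.03. Its probe, on chromosome 2 from 54085145 to 54085206 on build mm7, had the smallest EGFP SD of all members, 0.02. Of the 29 p53 targets tested, 3 were called higher and 12 lower after Tip60 knockdown, with a median of -0.13. Among all tested genes, 15.3% were called higher and 10.3% lower. After p400 knockdown the same list had 5 higher and 7 lower, where 20.2% of 18691 tested genes were called higher and 15.1% lower.

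Dicer1, the nuclease that cuts miRNA precursors, had 11.47, 11.56, 11.77 and 11.51 in EGFP and 10.98, 11.28 and 10.91 in Tip60 knockdown (-0.52 ± 0.13). Npepps, a cytosolic aminopeptidase, was the brightest lowered member after Chd7, with 12.78, 12.75, 12.78 and 12.83 against 12.18, 12.34 and 12.12 (-0.57 ± 0.07). The remaining 3 lowered members with no flagged spot were transcripts known by accession, with differences of -0.53, -0.53 and -0.52 and no overlap.

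**Figure D1:**
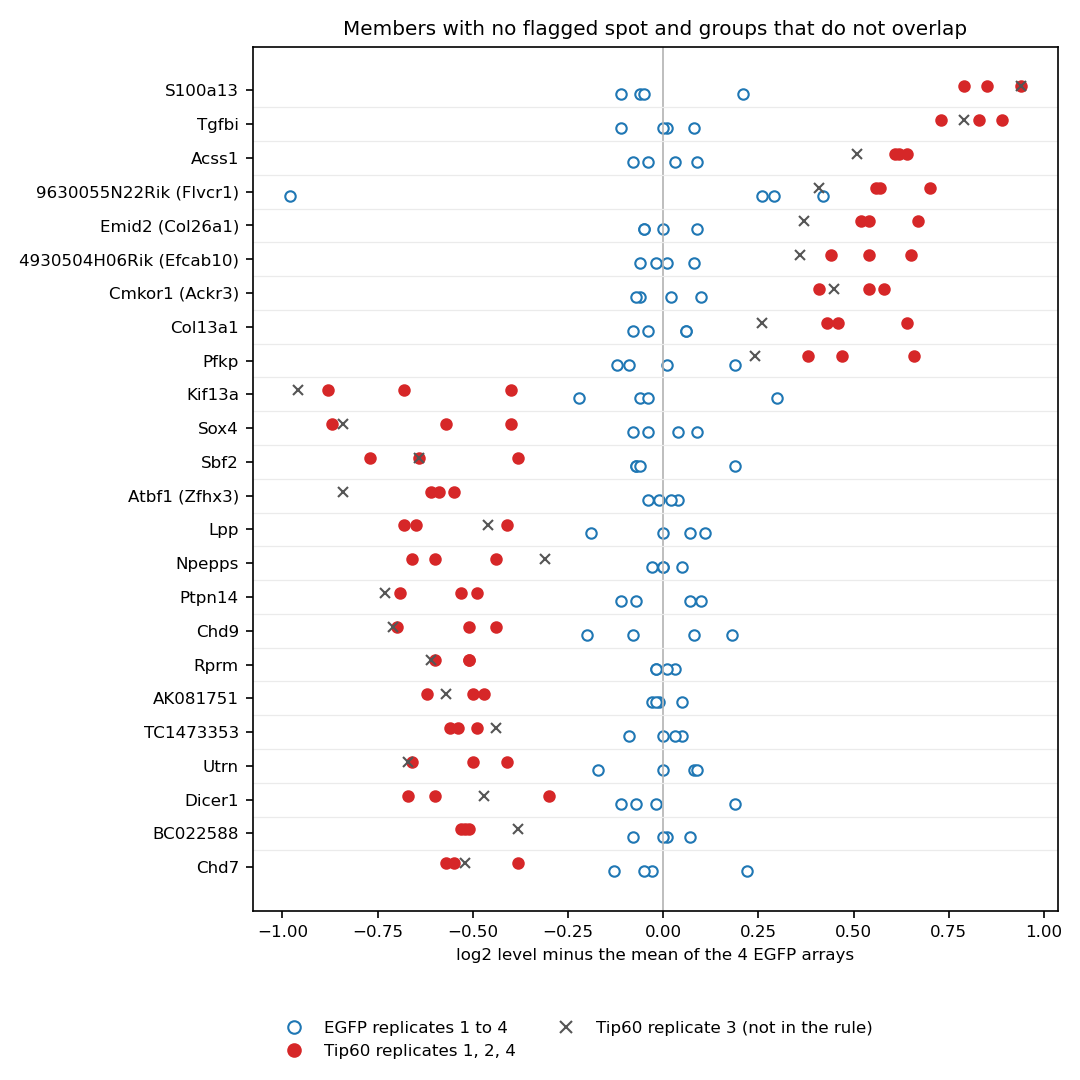
The plot shows, for the 24 members with no flagged spot and groups that do not overlap, the log2 level on each single-colour array minus the mean of the 4 EGFP arrays. Open circles are EGFP, filled circles Tip60 replicates 1, 2 and 4, and crosses Tip60 replicate 3; the 15 lowered members have medians near -0.55, and S100a13 has the largest difference on the raised side, 0.86.

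Raised members with no flagged spot numbered 11 of 41, and the groups did not overlap in 9 of them, where 10.6% of probes with an EGFP mean of at least 8 had every Tip60 array above every EGFP array. The 9 included genes of the matrix and cell surface (Tgfbi, Emid2, Col13a1 and Cmkor1), metabolic enzymes (Acss1 and Pfkp) and the calcium-binding protein S100a13. Tgfbi, Acss1, Cmkor1 and Ncoa6, and the accession-only lowered transcripts AK081751 and TC1473353, lie outside the rule for named genes and were picked out after their values were seen.

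S100a13, a small calcium-binding protein, had 9.63, 9.95, 9.68 and 9.69 in EGFP and 10.68, 10.59 and 10.53 in Tip60 knockdown, a difference of 0.86 ± 0.08 (1.82-fold). Tgfbi, a matrix protein named for its induction by TGF-beta, had 10.55, 10.62, 10.54 and 10.43 against 11.43, 11.27 and 11.37 (0.82 ± 0.06, 1.77-fold). Acss1, a mitochondrial enzyme that makes acetyl-CoA from acetate, had 10.55, 10.68, 10.62 and 10.51 against 11.20, 11.23 and 11.21 (0.62 ± 0.04). In all 3 the lowest Tip60 array lay above the highest EGFP array.

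Emid2 (now Col26a1), a collagen, had 8.47, 8.61, 8.52 and 8.47 in EGFP and 9.04, 9.19 and 9.06 in Tip60 knockdown (0.58 ± 0.06). Col13a1, a transmembrane collagen, had 8.64, 8.64, 8.54 and 8.50 against 9.01, 9.04 and 9.22 (0.51 ± 0.07). Cmkor1 (now Ackr3), an atypical chemokine receptor, had 8.76, 8.92, 8.84 and 8.75 against 9.36, 9.23 and 9.40 (0.51 ± 0.06). All 3 were low in EGFP cells, less than 1 log2 unit above the limit of 8. Of the 60 collagen, integrin and laminin genes tested, 17 were called higher and 4 lower after Tip60 knockdown, with a median of 0.20. After p400 knockdown 25 of 70 were called higher and 2 lower, with a median of 0.12. A separate list of extracellular matrix and integrin genes, which held no member, showed no such rise. It had 4 of 31 called higher and 5 lower after Tip60 knockdown, with a median of -0.05. For p400, 12 of 32 were called higher and 6 lower, with a median of 0.17. The shares over all tested genes were 15.3% higher and 10.3% lower for Tip60, and 20.2% and 15.1% for p400.

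Pfkp, an isoform of the glycolytic enzyme phosphofructokinase, had 12.80, 12.67, 12.98 and 12.70 in EGFP and 13.17, 13.45 and 13.26 in Tip60 knockdown (0.51 ± 0.11). Of the 24 glycolysis and hypoxia genes tested, 2 were called higher and 3 lower, with a median of -0.07, against 15.3% and 10.3% of all genes. The clone 4930504H06Rik (now Efcab10) had 8.39, 8.46, 8.32 and 8.36 against 8.92, 8.82 and 9.03 (0.54 ± 0.07). The clone 9630055N22Rik (now Flvcr1, a heme exporter) had 8.39, 8.55, 7.15 and 8.42 against 8.83, 8.70 and 8.69. Without EGFP replicate 3 its difference was 0.29, against 0.61 with it.

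In the other two of the 11, the groups overlapped. Iqcd had 12.09, 11.98, 7.35 and 11.74 in EGFP and 11.75, 17.07 and 11.88 in Tip60 knockdown, so its difference of 2.78 ± 2.10 (SE) rested on EGFP replicate 3 and Tip60 replicate 2. Ncoa6, a nuclear receptor coactivator, had 6.11, 9.99, 9.68 and 9.59 against 9.71, 9.75 and 9.40, and only EGFP replicate 1 was low. Without that array its difference was -0.13, against 0.78 ± 0.92 with it.

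The other 30 raised members had a flagged spot on at least 1 of the 7 arrays, where 1.25% of probes with an EGFP mean of at least 8 did. The flagged spot was on EGFP replicate 3 in 23, on EGFP replicate 1 in 9, on Tip60 replicate 2 in 7 and on Tip60 replicate 1 in 1, and 8 members had more than 1 such array. None of the 41 had a flagged spot on a p400 array. The spots were close together: 26 of the 41 raised members lay in rows 521 to 532, the last of the array's 532 rows, where 1.7% of such probes lie. Of these 26, 23 were flagged.

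Among them were members with EGFP replicates 1 and 3 both low. Mrps23, a mitochondrial ribosomal protein, had 5.56, 12.17, 7.53 and 12.13 in EGFP and 12.21, 12.11 and 12.30 in Tip60 knockdown. Psmd13, a proteasome subunit, had 9.47, 12.16, 7.21 and 12.13 against 12.32, 12.12 and 12.32, and Ssr2, a protein of the translocon of the endoplasmic reticulum, had 10.47, 14.44, 11.11 and 14.40 against 14.45, 14.42 and 14.44. In all 3, EGFP replicates 1 and 3 were low and EGFP replicates 2 and 4 stood at the Tip60 level. The differences over all spots were 2.86 ± 1.67, 2.01 ± 1.19 and 1.83 ± 1.06 (SE), the values without flagged spots were 2.25, 1.75 and 0.02, and an unflagged low spot was left in the first and the second.

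Fth1, the heavy chain of the iron store ferritin, had 17.04, 17.06, 11.42 and 16.93 in EGFP and 17.06, 16.64 and 16.98 in Tip60 knockdown. Dnajc10, a disulfide reductase of the endoplasmic reticulum, had 11.51, 11.40, 7.06 and 11.27 against 11.57, 11.46 and 11.63. Suox, sulfite oxidase, had 10.86, 10.92, 6.45 and 10.85 against 10.88, 10.70 and 10.80. EGFP replicate 3 alone was low in each, and without flagged spots the differences were -0.12, 0.16 and -0.08 in place of 1.28 ± 1.4, 1.24 ± 1.09 and 1.02 ± 1.11.

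Pepd, a dipeptidase, was low on EGFP replicate 1 alone, with 10.73, 13.79, 13.80 and 13.69 against 13.88, 13.84 and 14.13, and its difference was 0.19 without the flagged spot and 0.95 with it. Sec15l2 (now Exoc6b), an exocyst subunit, had 9.78, 10.97, 8.54 and 10.93 against 10.97, 11.04 and 11, and stood at 0.05 without its flagged spots and 0.95 with them. Ches1 (now Foxn3), a forkhead factor, had 11.39, 11.54, 6.00 and 11.36 against 11.28, 11.17 and 11.24. Its low spot on EGFP replicate 3 was not flagged, and without that array its difference was -0.20, against 1.16 ± 1.36 with it and 1.60 without its flagged spot on EGFP replicate 1. Ybx2, an RNA-binding protein of germ cells, had 8.76, 9.63, 6.10 and 9.55 against 9.39, 10.22 and 9.70, with EGFP replicates 1 and 3 low, and its difference was 1.26 ± 0.86 with and 1.34 without its flagged spot on EGFP replicate 1. Ppil2, a cyclophilin-like protein, had 11.82, 11.55, 9.82 and 11.80 against 11.85, 11.83 and 11.82. Mylc2b (now Myl12b), a myosin light chain, had 13.54, 13.84, 11.27 and 13.60 against 13.82, 13.45 and 13.54. EGFP replicate 3 alone was low in both, and the differences went from 0.59 and 0.54 to 0.11 and -0.06 without the flagged spot.

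In a smaller number the value on Tip60 replicate 2 was high, in place of low control values. Eif2c4 (now Ago4), an Argonaute protein, had 8.20, 7.98, 9.51 and 7.89 in EGFP and 8.64, 10.28 and 7.78 in Tip60 knockdown, with flagged spots on 4 of the 7 arrays. Only Tip60 replicate 2 was above every EGFP array, and the difference of 0.51 ± 0.82 has no counterpart without flagged spots, since too few spots were left. In all, 7 raised members were flagged on Tip60 replicate 2, and in each of them EGFP replicate 3 was the highest EGFP array. In the lowered set Rnf125, a ubiquitin ligase, was flagged on Tip60 replicate 2 too. Rnf125 had 10.46, 10.74, 10.23 and 10.53 in EGFP and 10.60, 8.33 and 10.48 in Tip60 knockdown, a difference of -0.69 ± 0.74 with the flagged spot and 0.05 without it.

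**Figure D2:**
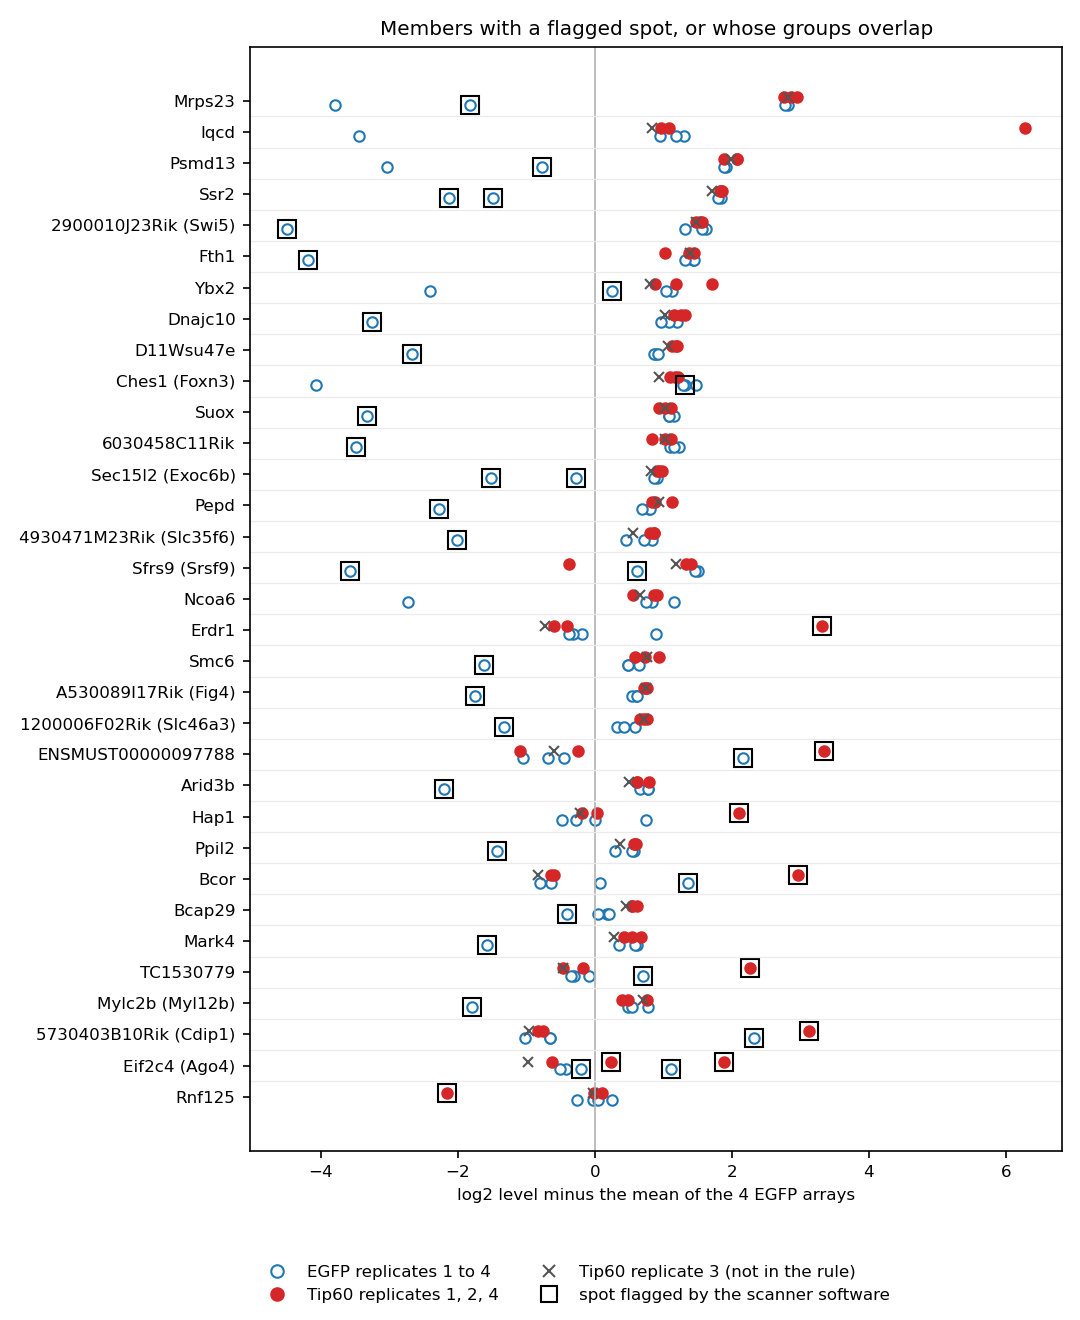
The plot shows the 33 members with a flagged spot or with groups that overlap, as the log2 level on each single-colour array minus the EGFP mean, with squares around flagged spots. Most members have 1 or 2 low open circles far to the left of all other points, and a few hold a Tip60 point far to the right, such as Iqcd, whose level on that array was 17.07.

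Without flagged spots, 29 of these 30 raised members kept at least 2 spots in each group. Their median difference was then 0.05, against 0.78 over all spots of the 30. Of the 29, 4 stayed at or above 0.5, 19 lay between -0.2 and 0.2, and 11 were below zero, with a range from -0.69 to 2.25. The 4 were Mrps23, Psmd13, Ybx2 and Ches1, each of which kept a low EGFP spot that was not marked. The label of a gene that moves with Tip60 loss was therefore not borne out by the unflagged spots for most raised members, and they are named here by the rule that took them.

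**Figure D3:**
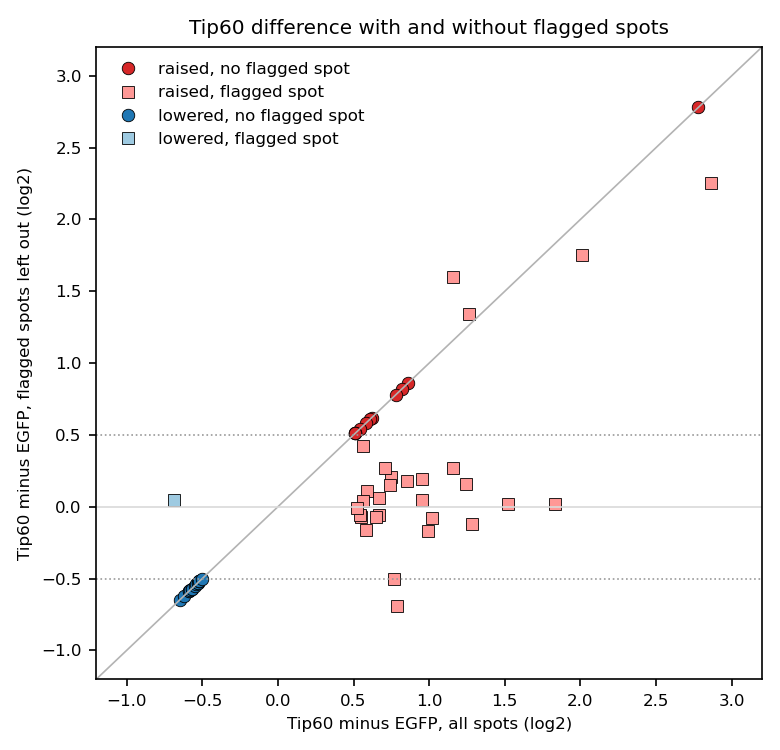
The plot sets the Tip60 minus EGFP difference over all spots (x axis, log2) against that without flagged spots (y axis, log2), with dotted lines at 0.5 and -0.5. The flagged raised members drop from a median of 0.78 to one of 0.05, while members with no flagged spot lie on the diagonal.

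The values were also taken within slides, from the same arrays that chose the members. Slide 2 held EGFP replicates 1 and 3 and Tip60 replicates 2 and 4, and slide 3 held EGFP replicates 2 and 4 and Tip60 replicates 1 and 3, of which the rule used replicate 1. On slide 2 the flagged raised members had a median difference of 1.51, and on slide 3 one of 0.09. All arrays with a flagged spot among these members but Tip60 replicate 1 were on slide 2, so these medians restate where the flagged spots lay. The 11 raised members with no flagged spot had medians of 0.63 and 0.50, and the 15 lowered ones -0.56 and -0.55. All 15 were below zero on both slides, which their lack of overlap had already fixed, so nothing is read from that count. On slide 3 each difference here rests on Tip60 replicate 1 alone.

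Tip60 replicate 3 was not used by the rule and gives a further reading, on the array with the fewest bright spots. It lay below every EGFP array in 15 of the 15 lowered members with no flagged spot, with a median difference of -0.61 and a range from -0.96 to -0.31. Over all probes with an EGFP mean of at least 8, 47.6% lay below every EGFP array on it. It lay above every EGFP array in 8 of the 11 raised members with no flagged spot and in 7 of the 30 flagged ones, where 17% of all such probes did. The 3 of the 11 that did not were Iqcd, Ncoa6 and 9630055N22Rik. The single flagged lowered member, Rnf125, had a replicate 3 difference of -0.02.

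By gene, replicate 3 stood at 10.68 for S100a13, 11.33 for Tgfbi and 11.10 for Acss1, close to the other Tip60 arrays. It stood at 8.84 for Col13a1 and 13.03 for Pfkp, below the other Tip60 arrays and above all EGFP arrays. Among lowered members it was 8.02 for Kif13a, 7.88 for Atbf1 and 9.24 for Ptpn14, each lower than on any other array of the comparison. It was 12.47 for Npepps, between the other Tip60 arrays and the EGFP arrays. As this array shares the EGFP controls with the rule, the readings are not independent of the values that chose the members.

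The p400 side of the rule asks for a mean ratio in a narrow window, which 47.2% of probes with an EGFP mean of at least 8 met. Single arrays scattered more widely than the window. Over the 15 lowered members with no flagged spot, the SD of the 4 p400 ratios ran from 0.10 to 0.59 with a median of 0.27, against a median of 0.19 over all such probes. In 7 of the 15, replicates 1 and 3 (p400 RNA in Cy5) were both above replicates 2 and 4 (Cy3), where 22.8% of all such probes showed that order. It was seen in 5 of the 11 raised members with no flagged spot and in 11 of the 30 flagged ones.

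Dicer1 had p400 ratios of 0.63, -0.59, 0.57 and -0.15 on replicates 1 to 4, a mean of 0.12 with a 95% interval from -0.82 to 1.05. Sbf2 had 0.31, -0.45, 0.31 and -0.36, a mean of -0.05 (-0.71 to 0.61). Kif13a had -0.10, -0.67, 0.48 and -0.16, a mean of -0.11 (-0.86 to 0.64). In these genes the mean near zero came from arrays of opposite sign.

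Steadier were Rprm, with -0.22, -0.05, -0.27 and -0.26, and Chd7, with -0.03, -0.02, -0.19 and -0.22. Their intervals ran from -0.36 to -0.04 and from -0.28 to 0.05, and both genes were below zero on all 4 p400 arrays. Among raised members, Tgfbi had 0.31, 0.52, -0.11 and -0.04 (mean 0.17, -0.30 to 0.64) and S100a13 had 0.54, -0.09, 0.09 and 0.08 (mean 0.16, -0.27 to 0.58). Acss1 had 0.27, 0.26, -0.15 and 0.18 (mean 0.14, -0.17 to 0.45).

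The 95% interval of the p400 mean lay wholly within 0.5 of zero in 7 of the 15 lowered members, 6 of the 11 raised members with no flagged spot and 20 of the 30 flagged ones. For the rest, a p400 ratio as large as the limit set on the Tip60 difference lies inside the interval. With normexp and loess values, the p400 mean stayed in the window for all 15, all 11 and 28 of 30. With the deposited log ratios it stayed there for 10 of the 15, all 11 and 26 of 30, and the 5 lowered members outside were all below the window, down to -0.44 for Rprm.

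**Figure D4:**
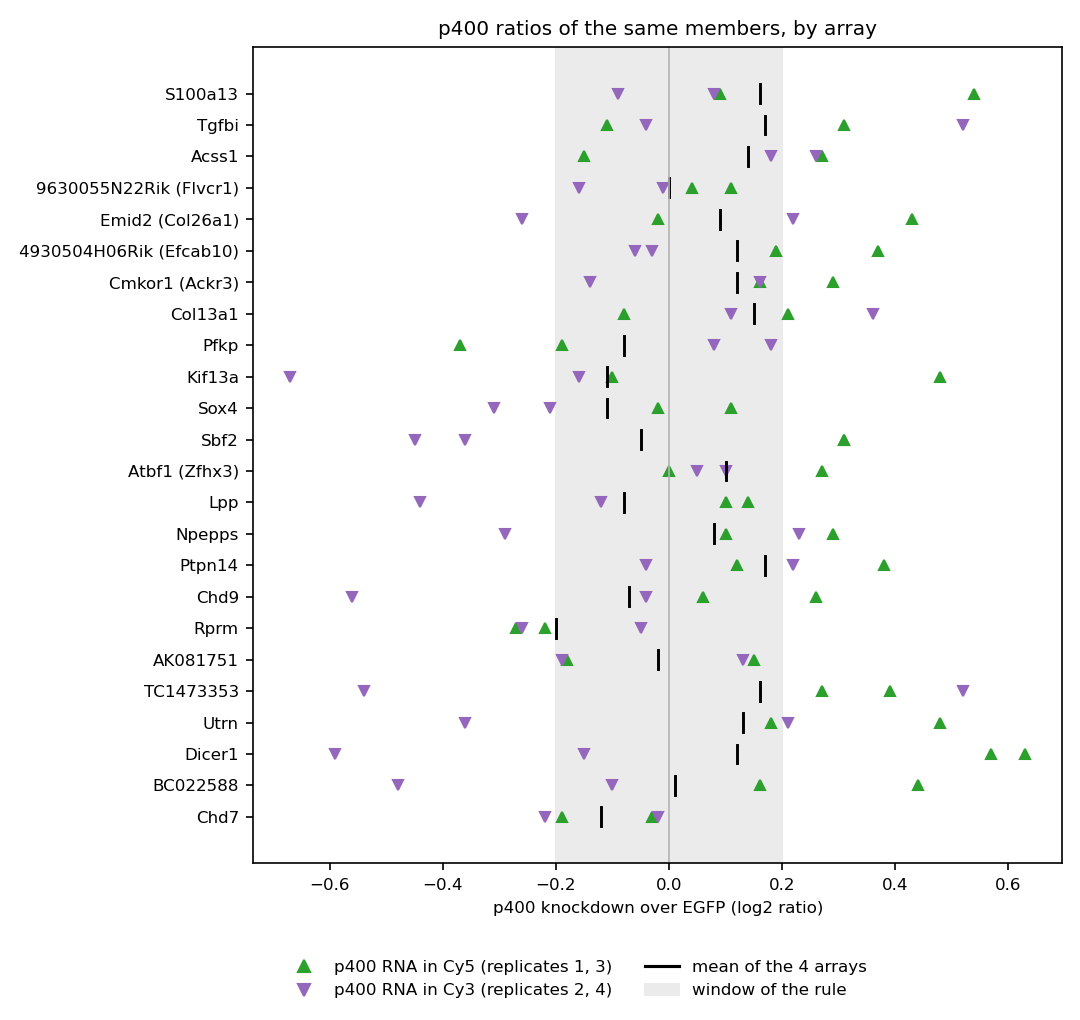
The plot shows the 4 p400 over EGFP log2 ratios of the 24 members with no flagged spot and no overlap, with upward triangles where p400 RNA carried Cy5 and downward triangles where it carried Cy3. Bars mark the means, all within the grey window from -0.2 to 0.2, while single arrays reach 0.63 and -0.59 for Dicer1.

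Many members' genes have further probes on the array, which the rule did not take. For the lowered members with no flagged spot there were 34 such probes of 11 genes. Of these, 33 had a Tip60 difference below zero, 25 had no overlap between the groups and 5 reached -0.5 or below, with a median of -0.40. Of the 17 with an EGFP mean of at least 8, 15 had no overlap. Over all such probes, 17.8% had every Tip60 array below every EGFP array. Their p400 ratio was below -0.2 for 22 probes of 9 genes and inside the window for the other 12. For the 17 probes with an EGFP mean of at least 8, the median p400 ratio was -0.44, 14 of the 17 lay below the window and none above it. The other 3 were inside it, where 47.2% of all probes at that level were. The share of all probes below the window was not counted. So most other probes of these genes lay below the window, while the rule itself had set the member probes inside it. Without the share over all probes, nothing more is read from these counts. A probe of the same gene may read another transcript of it.

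Utrn was the clearest case. Its brightest probe, with an EGFP mean of 12.84, had a Tip60 difference of -0.44 without overlap and p400 ratios of -0.36, -0.79, -1.26 and -0.97. Its member probe, with an EGFP mean of 9.18, had p400 ratios of 0.18, -0.36, 0.48 and 0.21. The Tip60 difference was of like size on both probes, and the p400 ratio was not.

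Chd9 had a brighter probe (EGFP mean 10.33) with a Tip60 difference of -0.48 and a p400 ratio of -0.57 ± 0.15 (SD, n = 4). Kif13a had 2 further probes with Tip60 differences of -0.44 and -0.42 and p400 ratios of -0.60 and -0.78. Sbf2 had a brighter probe at 11.72 with -0.36 for Tip60 and -0.45 ± 0.05 for p400, negative on all 4 arrays. The further probe of Dicer1, at an EGFP mean of 11.20, had a Tip60 difference of only -0.20, with groups that overlapped. Its p400 ratio was -0.50 ± 0.16, negative on all 4 arrays. In each of these genes a probe with a tighter p400 ratio than the member lay below the window.

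Npepps was an exception, since its second probe had -0.48 for Tip60, without overlap, and 0.07 ± 0.23 for p400. Atbf1 was another, with 3 further probes at -0.31, -0.50 and -0.34 for Tip60, none overlapping, and at -0.10, -0.06 and -0.12 for p400. For these 2 genes every probe met the p400 window.

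For the raised members with no flagged spot there were 6 further probes of 5 genes. Of these, 4 had the sign of the member and 1, of Col13a1, had every Tip60 array above every EGFP array, with a difference of 0.28 at an EGFP mean of 6.60. The brighter of the further Pfkp probes had the reverse, every Tip60 array below every EGFP array, at -0.30 against 0.51 on the member's probe. Of the 3 further probes with an EGFP mean of at least 8, only 1 had the sign of the member, and their median was -0.09. For the flagged raised members there were 32 probes of 16 genes, with a median of -0.08. None reached 0.5, none had every Tip60 array above every EGFP array, and 5 had every Tip60 array below, among them 2 probes of Ches1 at -0.31 and -0.38. Of the 19 with an EGFP mean of at least 8, 4 had every Tip60 array below. Over all probes at that level, 10.6% had every Tip60 array above and 17.8% every Tip60 array below. S100a13, Tgfbi, Acss1, Emid2 and Cmkor1 had a single probe each.

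**Figure D5:**
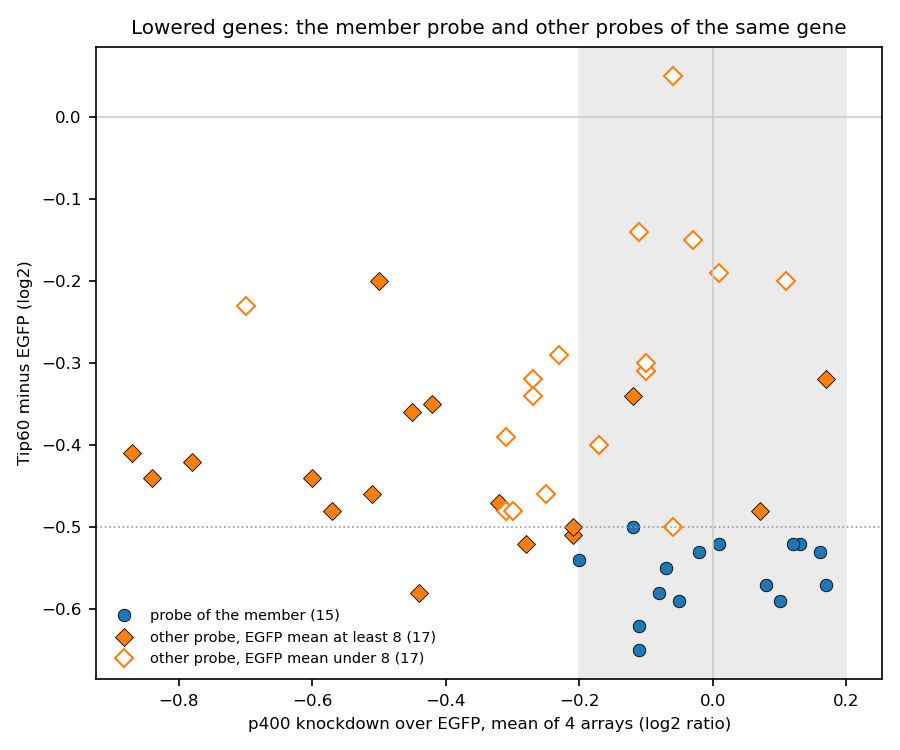
The plot sets the mean p400 ratio (x axis, log2) against the Tip60 minus EGFP difference (y axis, log2) for the 15 lowered members with no flagged spot and the 34 further probes of their genes. The members fill the grey window by the rule, while 22 of the further probes lie to its left.

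Gene length differed between the sides. The 12 lowered members with no flagged spot and a RefSeq gene had a median span from start to end of 179439 bases, and 8 of the 12 spanned over 100000 bases. The 11 raised members with no flagged spot had a median of 29774 bases, 2 of them over 100000, and the flagged raised members one of 18183. Over 10950 genes with an EGFP mean of at least 8 the median was 22322 bases, and 11.1% spanned over 100000. Atbf1 (682326 bases), Lpp (599229) and Utrn (487702) were the longest of all members, and Rprm (1460) and Sox4 (4781) the shortest lowered ones. The GC share of the 60-base probes had medians of 45.0% for lowered and 41.7% for raised members with no flagged spot, against 43.3% over all.

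Of 61 lists of pathways, complexes and families, 51 held no member. The 10 others held 13 members, and 44 members were on none. The proteasome list, with Psmd13, had 44 tested genes and 0 calls in either direction in the limma fit of the Tip60 arrays (1 higher and 1 lower at an unadjusted p under 0.05), with a median of -0.03. The mitochondrial ribosomal list, with Mrps23, had 0 of 78 called higher and 4 lower by limma (4 and 8 at an unadjusted p under 0.05). The ubiquitin enzyme list, with Rnf125, had 33 of 324 called higher and 37 lower, and the solute carrier list, with 2 raised members known by clone names, had 63 of 268 higher and 30 lower. Over all tested genes, 15.3% were called higher and 10.3% lower. Both solute carrier members had a flagged spot, and their differences without flagged spots were 0.18 and 0.27. So in the proteasome and mitochondrial ribosomal lists no gene was called in the direction of its member.

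In the limma fit of the Tip60 arrays, which leaves flagged spots out and takes the brightest probe of a gene, the member's own probe was called in its direction for 8 of 8 lowered and 8 of 9 raised members with no flagged spot that were represented by it. It was called for 1 of 22 flagged raised members. These counts rest on the contrast that chose the members and support nothing beyond the description.

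Near the limits of the rule, Eif2c4, Pfkp and Col13a1 were just inside the rise at 0.51, and Anxa2 (0.50 after rounding), 4930432K21Rik and Sccpdh (both 0.49) just outside. Chd7 at -0.50, with BC022588 and Dicer1 at -0.52, was just inside the fall, and Malat1 and Wbscr27 (both -0.50 after rounding) and Pctk2 (-0.49) just outside. Rprm (-0.20), Ppil2 (-0.20) and Mylc2b (-0.198) sat at the edge of the p400 window, with Il3ra (0.203), 2900011O08Rik (0.208) and BI662359 (-0.210) beyond it. Lpp (8.06), 9630055N22Rik (8.13) and 4930504H06Rik (8.38) were the dimmest in EGFP cells, and Slc2a3 (7.93), TC1434594 (7.79) and Nnat (7.75) fell short of the limit of 8.

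The counts moved with single arrays. Without Tip60 replicate 1 the rule took 64 raised probes in place of 41. The lowered count of 16 became 29 without Tip60 replicate 1, 43 without Tip60 replicate 2, 27 without EGFP replicate 1 and 32 without EGFP replicate 4. Of the 15 lowered members with no flagged spot, 10 to 15 were taken again when a single Tip60 or EGFP array was left out, and 9 without p400 replicate 2.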

How the data were processed

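Gene expression was measured on 12 Agilent arrays of one mouse design, read with Feature Extraction 9.5.1.1 and build mm7 per the file headers. The authors' deposited table holds log2 values: log2 ratios of p400 knockdown over EGFP for the two-colour arrays, and log2 signals for the single-colour arrays. How the authors normalized it is not given in the sources used here. The deposited scanner files hold intensity per spot and, for two-colour arrays, a log10 ratio, which was turned to knockdown over EGFP by the labelled dyes and put on the log2 scale.

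The members and gene lists were chosen with earlier results of these data known. The rule was applied to the deposited log2 values. Named genes were, per direction, the 12 members with a gene symbol and the largest difference, up to 3 per list, those nearest each limit, and the targeted genes; exceptions are stated. Single-colour processed signals were put on the log2 scale minus the array's 75th percentile, and two-colour signals corrected by normexp (offset 50) and loess. limma 3.58.1 in R 4.3.3 was fitted over all genes, without flagged spots, with one probe per gene, the brightest of those that 3 or more arrays of the knockdown or of the control measured well above background, a dye term for p400, and Benjamini-Hochberg adjustment at 0.05. The fits were also run on simulated data with independent noise. Those data held no slide effects or outlier spots, so that run cannot speak to either. The number of arrays limits the precision. Whether replicate numbers pair the samples could not be settled. Levels of different probes are not compared as amounts of RNA.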

Additional observations from a re-analysis of the deposited data

Results flagged for a closer look

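Within each group of 4 arrays, a value was picked out where its gap to the nearest other array exceeded Dixon's critical value of 0.829 as a share of the range. Chance picks out about 1 in 20 groups of values that were not selected. The rule chose the members by means that a single extreme spot can move, so that share is no background for these groups. Of 171 groups, 33 were picked out, among them 16 with EGFP replicate 3 low, 6 with Tip60 replicate 2 high and 3 with EGFP replicate 1 low. Only members named in the text are given singly.

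EGFP replicate 3 was low for Iqcd (7.35, others 11.74 to 12.09), Fth1 (11.42, others 16.93 to 17.06), Dnajc10 (7.06, others 11.27 to 11.51) and Ches1 (6.00, others 11.36 to 11.54). It was also low for Suox (6.45, others 10.85 to 10.92), 9630055N22Rik (7.15, others 8.39 to 8.55), Ppil2 (9.82, others 11.55 to 11.82) and Mylc2b (11.27, others 13.54 to 13.84). The scanner software marked these spots for Fth1, Dnajc10, Suox, Ppil2 and Mylc2b, and not for Iqcd, Ches1 and 9630055N22Rik.

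EGFP replicate 1 was low for Pepd (10.73, others 13.69 to 13.80) and for Ncoa6 (6.11, others 9.59 to 9.99). Tip60 replicate 2 was high for Iqcd (17.07, others 11.62 to 11.88) and low for Rnf125 (8.33, others 10.47 to 10.60). Smaller gaps were seen for Sbf2, high on EGFP replicate 3 (9.39, others 9.13 to 9.14), for BC022588, high on Tip60 replicate 3 (9.15, others 9.0 to 9.02), and for Ppil2, low on Tip60 replicate 3 (11.62, others 11.82 to 11.85).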

How the results depend on the processing

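The count of raised members (41) became 64 with a limit of 0.4, 23 with 0.7, 18 with a p400 window of 0.1, 66 with 0.3, 12 on slide 3, 16 without flagged spots, 17 with medians, 15 without array rows 521 to 532 and 14 with groups that do not overlap. The count of lowered members (16) became 32 with Tip60 replicate 3, 80 with a limit of 0.4, 0 with 0.7, 7 with a window of 0.1, 34 with 0.3, 28 with an EGFP mean of at least 7, 33 on slide 2, 33 on slide 3 and 28 with medians. Leaving out single arrays gave 31 to 64 raised and 20 to 43 lowered members. Leaving out flagged spots, medians and array rows were chosen after seeing the data. With the replicate block the rule took 38 raised and 20 lowered members.

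Of all genes, limma called 4332 for Tip60, against 2034 with the replicate block on 6 arrays and 3797 on the same 6 arrays without it. For p400 it called 6603, and 3219 to 5928 when an array was left out, the lowest without p400 replicate 2. Deviations from the group means on same-numbered Tip60 and EGFP arrays had correlations of -0.42, -0.11 and -0.24. Each such pair was split between slides 2 and 3, so these values cannot tell whether the numbers pair the samples.

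Of the 41 raised members, 11 without flagged and 30 with flagged spots, signs reversed on slide 3 for 2 and 9, with the replicate block for 0 and 7 and with medians for 0 and 9. Without flagged spots they reversed for 11 of 29 raised members. Among the named genes, signs reversed on slide 3 for Iqcd (-0.11), Ybx2 (-0.20), Ches1 (-0.17) and Ncoa6 (-0.08). With the replicate block they reversed for Fth1 (-0.12), Ches1 (-0.20), Suox (-0.08) and Mylc2b (-0.06). Without flagged spots they reversed for Fth1 (-0.12), Suox (-0.08), Mylc2b (-0.06) and Rnf125 (0.05), and with medians for Ches1 (-0.13), Suox (-0.05) and Mylc2b (-0.03). Leaving out single arrays gave ranges of -0.12 to 1.76 for Fth1, -0.20 to 1.65 for Ches1, -0.08 to 1.41 for Suox, -0.13 to 1.16 for Ncoa6, -0.06 to 0.80 for Mylc2b, -0.18 to 1.07 for Eif2c4 and -1.08 to 0.05 for Rnf125. The cause was not tested.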
